A study of Mus musculus with 26 samples.

Results

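The genes described here are 10 components of the dense-core vesicle, chosen by name as the granins Chga, Chgb, Scg2, Scg3, Scg5 and Vgf and the peptide processing enzymes Pcsk1, Pcsk2, Cpe and Pam. All 10 were among the 31978 genes joined across the 26 count tables, and all 10 passed the filter on low counts in each fit. The RNA was ribosome-bound messenger RNA from dorsal striatum of Drd2-TRAP mice of line CP101, in which the Drd2 promoter drives the ribosomal protein Rpl10a fused to EGFP, so that antibodies against EGFP pull down polysomes of Drd2-expressing cells. In striatum these are chiefly the indirect-pathway medium spiny neurons, and cholinergic interneurons also use Drd2. The mice were adults of a strain given as FVB/N-Swiss Webster crossed for at least 9 generations to C57BL/6, and every library, input included, came from this transgenic line. They self-administered cocaine or saline intravenously in long-access sessions. Purified (immunopurified, IP) libraries numbered 2 from cocaine mice labelled escalating, 4 from cocaine mice labelled nonescalating, 3 from saline mice, 9 from nonescalating cocaine mice after withdrawal and 5 from saline mice after withdrawal. Another 3 libraries were unpurified input, 1 each from the nonescalating, saline and saline withdrawal conditions. No source used here gives the length of withdrawal, the dose or the number of animals behind a library, so p-values measure the spread between libraries, which may be technical in part. Library numbers in the titles, whose meaning the labels do not state, fall into 2 sets: set A holds every library without withdrawal and 6 withdrawal libraries, and set B holds 8 purified withdrawal libraries and the saline withdrawal input. Of set A, saline withdrawal replicate 2 was placed there by its number alone, and its table lists 32532 genes, as the set B tables do, against 32658 in the rest of set A. The other set A titles name a second number after the words "copy of", and its title, like those of set B, does not. It held 3279457 counts in genes, the fewest of the purified libraries. No fit placed it in set B.

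Granins are acidic proteins that aggregate with peptide precursors in the trans-Golgi network and help to form dense-core vesicles, the organelles from which neurons release neuropeptides. Inside the vesicle, prohormone convertases cut precursors after pairs of basic residues, carboxypeptidase E trims the basic residues left behind, and peptidylglycine alpha-amidating monooxygenase amidates peptides that end in glycine. Indirect-pathway neurons are the enkephalin neurons of the striatum, and proenkephalin is a substrate of this machinery. Several granin genes are also known as targets of cAMP signalling through the cAMP response element in their promoters.

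The members lie on 7 chromosomes of GRCm38 in the GENCODE M21 annotation. Among the granins, Chga (chromogranin A) spans 102554969 to 102565028 on chromosome 12, Chgb (chromogranin B) 132781278 to 132795079 on chromosome 2, and Scg2 (secretogranin II, the secretoneurin precursor) 79434669 to 79440120 on chromosome 1. Scg3 (secretogranin III, which binds chromogranin A and cholesterol-rich vesicle membrane) spans 75643189 to 75684056 on chromosome 9, Scg5 (7B2, the chaperone of the convertase PC2) 113776362 to 113829121 on chromosome 2, and Vgf (a nerve growth factor-inducible precursor) 137026392 to 137033351 on chromosome 5. Among the enzymes, Pcsk1 (the convertase PC1/3) spans 75089826 to 75134861 on chromosome 13, Pcsk2 (the convertase PC2) 143546156 to 143816285 on chromosome 2, Cpe (carboxypeptidase E) 64592542 to 64693054 on chromosome 8, and Pam (the amidating enzyme) 97795114 to 98095646 on chromosome 1. Exons of Pcsk2 overlap those of its antisense genes Pcsk2os1 (260 bases) and Pcsk2os2 (99 bases), and exons of Pam share 188 bases with the non-coding gene B230216N24Rik, so that small parts of these genes may be counted apart from the rest or with the partner.

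Promoters are shown here for members with an unadjusted p under 0.05 by edgeR in purified against input RNA or between conditions. Each covers the 120 bases before the RefSeq start. Capitals mark the full cAMP response element or, where it is absent, its core. RefSeq promoter sequences of GRCm38.p6, which run from 250 bases before to 50 after a start, matched 8 of the 10 members. The full element TGACGTCA, a palindrome that reads alike on both strands, was found in 3 of these 8 (Chgb, Scg2 and Pcsk1) and in 588 of 32851 mouse promoters (1.79%). The core TGACG, searched on both strands and contained in the full element, was found in 7 of the 8 and in 20.8% of all promoters. Of the matched members not shown, Pcsk2 and Scg5 had the core without the full element, and Pam had neither. A match describes these letters and does not show that a factor binds them.
Chgb, chr2:132781522-132781641, plus strand, full element at -72 from the start: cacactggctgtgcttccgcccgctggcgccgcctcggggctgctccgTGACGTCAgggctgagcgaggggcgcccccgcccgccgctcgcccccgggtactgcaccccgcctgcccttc
Scg2, chr1:79440027-79440146, minus strand, full element at -68 from the start: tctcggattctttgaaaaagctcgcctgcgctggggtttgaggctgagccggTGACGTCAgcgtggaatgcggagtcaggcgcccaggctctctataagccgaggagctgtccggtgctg
Pcsk1, chr13:75089737-75089856, plus strand, full element at -78 from the start: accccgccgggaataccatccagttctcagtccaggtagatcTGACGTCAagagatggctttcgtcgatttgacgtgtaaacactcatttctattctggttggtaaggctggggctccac
Chga, chr12:102554821-102554940, plus strand, core at -44 from the start: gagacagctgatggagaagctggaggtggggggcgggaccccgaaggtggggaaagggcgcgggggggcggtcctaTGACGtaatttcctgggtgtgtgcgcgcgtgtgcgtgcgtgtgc
Scg3, chr9:75684057-75684176, minus strand, core at -30 from the start: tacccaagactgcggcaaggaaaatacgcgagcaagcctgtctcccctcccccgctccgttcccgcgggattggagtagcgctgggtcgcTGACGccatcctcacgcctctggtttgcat

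Purified libraries held 3279457 to 19122303 counts in genes and inputs 5016587 to 11549493. Levels are CPM, gene counts relative to the library total, on library sizes scaled by TMM factors, and tests are edgeR quasi-likelihood F tests with Benjamini-Hochberg adjustment over all genes tested. Uniquely aligned reads that fell outside genes made up 21.2% to 70.7% of purified libraries and 27.3% to 31.6% of inputs, and reads that HTSeq could not assign to a single gene 0.942% to 2.85% of purified libraries and 8.61% to 12.8% of inputs. The purification followed the labels: Drd2 was at 849 to 6754 CPM in the 12 purified libraries of conditions with an input and at 413 to 547 CPM in the inputs (log2 fold change 2.80 ± 0.38 (SE), adjusted p = 0.000405 by edgeR). Rpl10a, the ribosomal protein that the transgene tags, averaged 184 ± 86.5 CPM (SD, n = 12) in those purified libraries and 59.4 ± 19.7 CPM (SD, n = 3) in inputs. The summed CPM of 7 D2 neuron markers was 2225 to 15653 in those 12 purified libraries and 2087 to 2196 in inputs. Its lowest purified value, in a saline withdrawal library, was thus close to the inputs. The summed CPM of 7 markers of direct-pathway neurons was 68.6 to 135.0 in purified libraries and 543 to 644 in inputs. For 8 astrocyte markers the sums were 159 to 394 and 1951 to 3048, for 8 oligodendrocyte markers 170 to 366 and 1584 to 2255, and for 9 interneuron markers 28.2 to 139 and 288.5 to 597.5, purified libraries first in each case. The 5 cholinergic interneuron markers summed to 7.89 to 45.8 CPM in purified libraries and 71.7 to 160.9 CPM in inputs. Markers of endothelial and mural cells went the other way, with sums over 11 genes of 284 to 10045 CPM in purified libraries and 136 to 678 CPM in inputs.

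Chgb and Cpe were the most abundant of the 10 transcripts per length in purified RNA, and Pcsk1 was close to the limit of detection. Levels between genes are compared as CPM per kb of merged exons. Over the 23 purified libraries Chgb averaged 120.2 ± 43.6 CPM per kb (SD), with a range of 44.1 to 230.2, and Cpe averaged 88.1 ± 33.1 CPM per kb. Chgb was above Cpe in 21 of 23 purified libraries, and Cpe was above Scg2 in all 23. Scg2 (42.6 ± 20.1 CPM per kb), Pcsk2 (37.2 ± 14.5 CPM per kb) and Scg5 (36.4 ± 21.1 CPM per kb) followed and did not differ in order beyond their spread, since Scg2 was above Pcsk2 in 13 of 23 libraries and Pcsk2 above Scg5 in 14 of 23. Vgf averaged 19.9 ± 13.8 CPM per kb, Scg3 10.2 ± 4.1 CPM per kb and Chga 7.61 ± 4.39 CPM per kb, with Scg3 above Chga in 15 of 23 libraries. Pam averaged 4.31 ± 1.37 CPM per kb and was above Pcsk1 in every purified library. Pcsk1 averaged 0.506 ± 0.715 CPM per kb.

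In the 3 inputs the order on the same scale began with Cpe at 115 ± 12.4 CPM per kb, Scg2 at 115 ± 25.4 CPM per kb and Chgb at 95.8 ± 11.5 CPM per kb (SD, n = 3). Scg5 averaged 60.8 ± 34.5 CPM per kb, Pcsk2 40.5 ± 6.96 CPM per kb and Scg3 32.0 ± 7.60 CPM per kb in inputs. Scg3 therefore ranked below Vgf in purified RNA and above it in every input. The order depends on the length used. Per kb of the longest transcript, purified libraries had Pcsk2 (62.2 CPM per kb) and Scg5 (47.3) above Scg2 (42.6), and Pam (12.5) above Scg3 (11.7) and Chga (11.1), while Chgb and Cpe stayed highest and Pcsk1 lowest. Both convertases can cut proenkephalin, and in purified RNA Pcsk2 was the one detected at a high level.

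**Figure D1:**
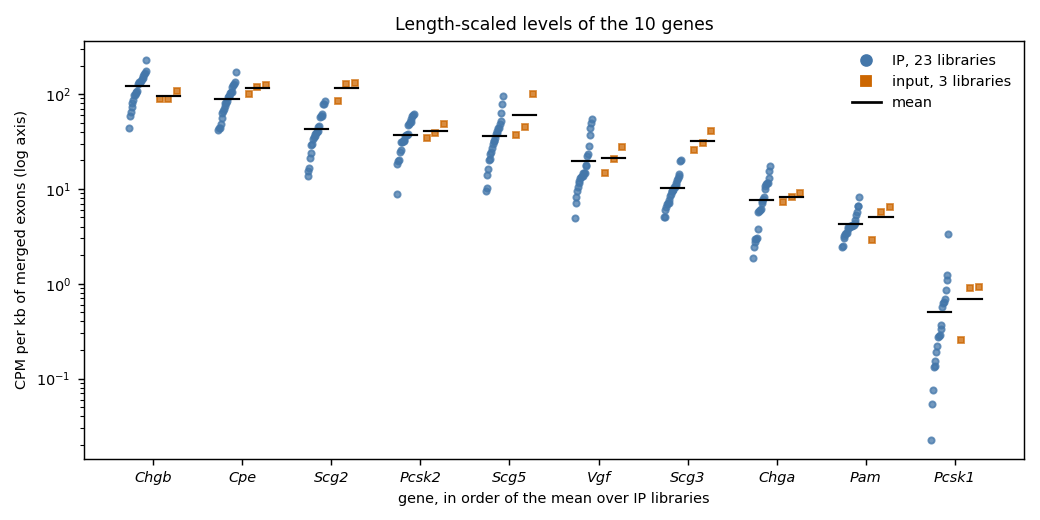
Length-scaled levels of the 10 genes (log axis, CPM per kb of merged exons), with purified libraries (circles, 23) left of inputs (squares, 3) and lines at the mean. Scg2 and Scg3 lie lower in purified libraries than in inputs, and Pcsk1 lies lowest in both, with 2 purified libraries at 0 counts that a log axis cannot show.

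Purified against input RNA asks which of these transcripts were higher or lower in the purified fraction than in the tissue it came from. Besides D2 neuron markers, endothelial and mural markers rose in that fraction. Their middle value was 3.13 in log2 units (3 of 11 called higher), beside 1.91 for D2 neuron markers (6 of 7 called higher). The part of endothelial and mural cells in the purified levels of the members was not tested. Scg2 and Scg3 fell in purified RNA, and no member was called higher. Of the 16422 genes tested, 6.84% were called at an adjusted p under 0.05, 3.51% of all genes lower and 3.34% higher, and 2 of the 10 members were called, both lower. The median log2 fold change of the members was -0.30, beside 0.17 for all genes tested.

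Scg2 was at 75.7, 99.6 and 102 CPM in purified saline libraries, 84.6, 155, 95.7 and 89.6 CPM in purified nonescalating libraries and 34.4, 53.55, 96.6, 112 and 60.2 CPM in purified saline withdrawal libraries. The inputs of those conditions held 325, 214 and 325 CPM. Every purified library was below every input, and only 3.4% of genes tested were lower without overlap between the groups. The log2 fold change was -1.56 ± 0.24 (SE, adjusted p = 0.00126), with a 95% interval of -2.07 to -1.05. Within set A it was -1.40 (adjusted p = 0.0329). Within set B it was -1.88, a value given without a test because set B has 1 input.

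Scg3, the other member called, was lower in the same way. Its purified libraries held 26.04, 17.8 and 19.3 CPM (saline), 19.3, 21.0, 16.6 and 26.7 CPM (nonescalating) and 13.7, 19.2, 28.8, 30.4 and 35.9 CPM (saline withdrawal), against 82.8, 69.7 and 110.5 CPM in the matching inputs. Again no purified library reached the lowest input. The log2 fold change was -1.82 ± 0.24 (SE, adjusted p = 0.000286), and it was -1.82 within set A (adjusted p = 0.0121) and, with no test, -1.83 within set B. Both calls held under the alternative settings with more than 1 input and without any single library, where Scg2 ran from -1.81 to -1.43 and Scg3 from -1.87 to -1.74. Astrocyte, oligodendrocyte, interneuron and direct-pathway markers moved in the same direction, by median log2 fold changes of -2.97, -2.42, -2.77 and -2.54. So did cortical glutamatergic (-3.41, 0 of 4 called), microglia (-2.38, 1 of 7 called) and cholinergic markers (-1.55, 1 of 5 called). The 3 inputs differed widely in cortical glutamatergic markers, whose sums over 5 genes were 4.56, 174 and 340 CPM. In the 12 purified libraries these sums were 0.128 to 38.5 CPM, so that the 2 kinds of library overlapped. The part of these cell types in the 2 falls was not tested.

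The other 4 granins gave no call. Chgb was at 121 to 424 CPM (median 315) in the 12 purified libraries and at 243, 246 and 299 CPM in the inputs, and its log2 fold change was 0.29 ± 0.25 (SE), with an interval of -0.23 to 0.81. All 4 purified nonescalating libraries were above their input, while 3 of 5 purified saline withdrawal libraries were below theirs. Chga ran from 5.12 to 48.0 CPM (median 19.3) in purified libraries, around inputs of 19.99, 22.7 and 24.9 CPM, with a log2 fold change of 0.02 ± 0.42 whose sign depended on the setting. This value pools conditions that differed: for Chga all 5 purified saline withdrawal libraries were below their input. Above theirs were 2 of 3 saline and 3 of 4 nonescalating libraries. Vgf was at 14.5 to 111 CPM in purified libraries (median 42.2) and at 43.6, 62.1 and 81.7 CPM in inputs, a log2 fold change of -0.18 ± 0.40. Scg5 was the most uneven: purified libraries held 14.8 to 149 CPM (median 48.0), and the inputs held 58.4 (saline), 70.2 (nonescalating) and 157 CPM (saline withdrawal). The Scg5 log2 fold change was -0.79 ± 0.44 (adjusted p = 0.267) over all libraries, 0.01 within set A and, with no test, -2.02 within set B, where it rests on the single saline withdrawal input. Without that input it was -0.02.

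Among the enzymes, none was called. Cpe was at 114 to 329 CPM (median 202) in purified libraries and at 264, 313 and 325 CPM in inputs, and every purified saline and saline withdrawal library was below its own input, while 2 of 4 nonescalating ones were above theirs (log2 fold change -0.41 ± 0.23, adjusted p = 0.257, interval -0.89 to 0.06). Pcsk2 was at 69.5 to 430.5 CPM (median 251) in purified libraries and at 271 to 380 CPM in inputs (-0.12 ± 0.26, interval -0.68 to 0.43). Pam was at 36.3 to 79.4 CPM (median 48.1) in purified libraries and at 34.0 to 77.1 CPM in inputs (-0.14 ± 0.29, interval -0.75 to 0.47). For Pcsk2, purified libraries above their own input numbered 0 of 5 (saline withdrawal), 1 of 3 (saline) and 2 of 4 (nonescalating). For Pam they numbered 5 of 5, 1 of 3 and 1 of 4 in that order. Pcsk1 counts were too few for a statement: 0 to 19.0 CPM in purified libraries and 1.42 to 5.14 CPM in inputs gave -1.07 ± 1.15, with an interval of -3.51 to 1.37. A p-value that missed the threshold does not show equal levels.

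**Figure D2:**
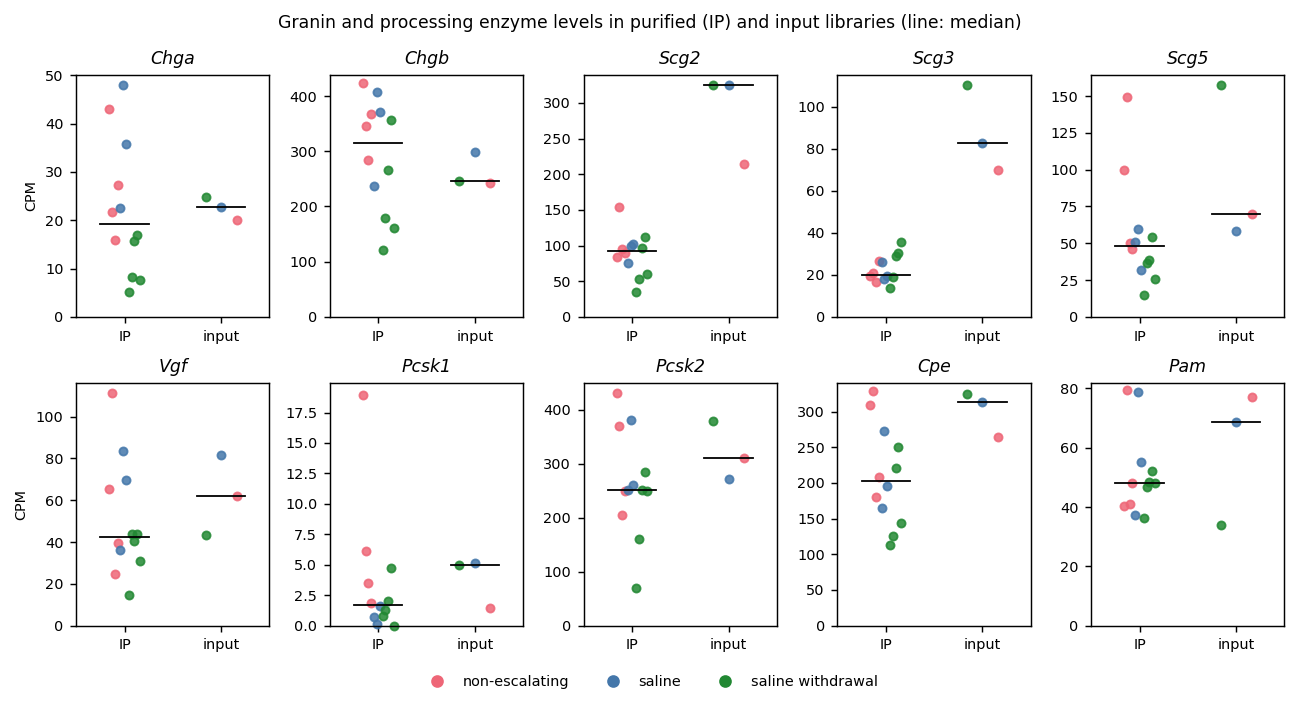
CPM of each gene (vertical axis, linear, from 0) in 12 purified libraries (IP, left) and 3 inputs (right), coloured by condition, with a line at the median. Purified libraries lie at 34.4 to 155 CPM for Scg2 and 13.7 to 35.9 CPM for Scg3, below all inputs, while for the other 8 genes the groups overlap.

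Related genes give the setting of these values. Of 31 genes of dense-core vesicle biogenesis and release, 3 were called lower and 0 higher, with a median log2 fold change of -0.12. Cadps, the priming factor CAPS1, was at 35.8 to 128 CPM in purified libraries and 250 to 291 CPM in inputs (log2 fold change -1.30 ± 0.18, adjusted p = 0.000507). Its paralog Cadps2 (-2.72 ± 0.79, adjusted p = 0.0491) and the calcium sensor Syt7 (-1.03 ± 0.25, adjusted p = 0.0239) were also called lower. Of the 11 tested genes on a list of other processing enzymes and inhibitors, none was called, and the lowest p belonged to Pcsk1n, the precursor of the PC1/3 inhibitor proSAAS, at 25.7 to 194 CPM in purified libraries and 22.8 to 92.3 CPM in inputs (log2 fold change 1.02 ± 0.40, adjusted p = 0.126).

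Of 13 tested peptide precursors, Penk, the enkephalin precursor and also one of the D2 neuron markers, was the only one called higher (1017 to 5602 CPM in purified libraries, 745 to 1078 CPM in inputs, log2 fold change 1.97 ± 0.31, adjusted p = 0.00147). Sst (somatostatin, -4.29 ± 0.27), Tac1 (substance P, -2.72 ± 0.35), Apln (apelin, -5.48 ± 0.97) and Pdyn (dynorphin, -2.54 ± 0.52) were called lower. Pdyn was at 4.42 to 14.3 CPM in purified libraries and at 8.67 to 83.9 CPM in inputs, so that the groups overlapped. Of 17 activity-regulated genes 1 was called, the clock gene Per1 (1.33 ± 0.32, adjusted p = 0.0211). Of 12 peptidases that degrade peptides, only Enpep, glutamyl aminopeptidase, was called higher (4.38 ± 1.25, adjusted p = 0.0451), at 0.128 to 56.3 CPM in purified libraries and 0.156 to 1.60 CPM in inputs.

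**Figure D3:**
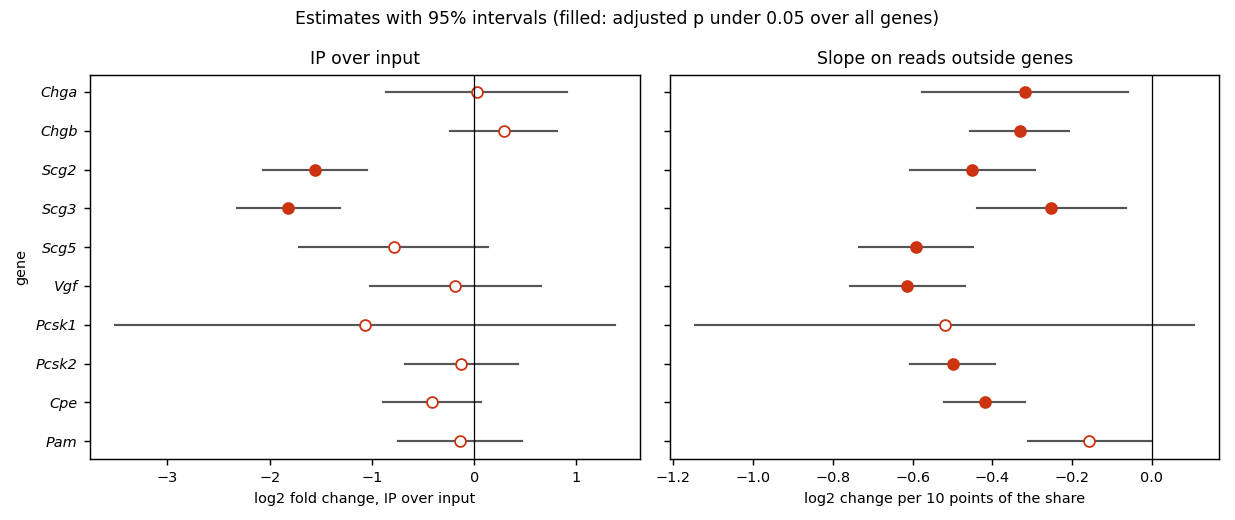
Estimates for the 10 genes with 95% intervals: on the left the log2 fold change of purified over input libraries, on the right the log2 change per 10 percentage points of reads outside genes among purified libraries (filled circles, adjusted p under 0.05 over all genes). Scg2 at -1.56 and Scg3 at -1.82 are the filled circles on the left, and 8 of 10 are filled on the right, all below 0.

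The groups without withdrawal set mice that differ in cocaine intake against saline mice. No gene was called in either comparison by edgeR (0 of 16908 genes, 0%, in each). At an unadjusted p under 0.05, 518 genes (3.06%) passed for escalating and 356 (2.11%) for nonescalating against saline. DESeq2 called 6 and 3 genes in these comparisons and limma voom 0 and 0. Of the members, none passed even an unadjusted p under 0.05 for escalating against saline, and only Pcsk1 did for nonescalating against saline.

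Among the granins, Scg3 was at 39.2 and 28.5 CPM in escalating libraries, against 19.3, 21.0, 16.6 and 26.7 CPM in nonescalating and 26.04, 17.8 and 19.3 CPM in saline libraries. Both escalating libraries were above every library of the other groups without withdrawal. Of all genes tested, 7.81% were higher without overlap in escalating than in saline libraries, and 5% were in escalating than in nonescalating libraries. Scg5 was at 76.1 and 69.6 CPM in escalating libraries, above the 31.6 to 59.6 CPM of saline libraries, and at 46.1 to 149 CPM in nonescalating libraries. Chgb (375 and 270.4 CPM), Scg2 (73.6 and 91.2 CPM), Chga (20.3 and 32.0 CPM) and Vgf (51.9 and 43.7 CPM) in escalating libraries lay around the saline ranges of 237 to 407, 75.7 to 102, 22.5 to 48.0 and 36.4 to 83.6 CPM.

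Pcsk1 was at 19.0, 6.14, 3.48 and 1.87 CPM in the 4 nonescalating libraries, against 0.749, 0.127 and 1.59 CPM in the 3 saline libraries. The groups did not overlap, as for 1.32% of genes tested in that direction. Those levels rest on 188, 48, 25 and 18 counts in nonescalating libraries and on 9, 1 and 18 counts in saline libraries. The log2 fold change was 3.15 ± 1.39 (SE, unadjusted p = 0.0336, adjusted p = 1), and it was 2.15 without nonescalating replicate 1. Escalating libraries held 6.91 and 0.419 CPM, 1 above and 1 within the saline range. Pcsk2, the other convertase, was at 404 and 298 CPM in escalating, 204 to 430.5 CPM in nonescalating and 252 to 380 CPM in saline libraries. Cpe was at 268 and 275 CPM in escalating, 181 to 329 CPM in nonescalating and 165 to 273 CPM in saline libraries. Pam was at 49.4 and 97.0 CPM in escalating, 40.2 to 79.4 CPM in nonescalating and 37.4 to 78.7 CPM in saline libraries.

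Escalating against nonescalating intake likewise gave no call (0 of 16908 genes by edgeR, 558 or 3.3% at an unadjusted p under 0.05, 11 by DESeq2 and 0 by limma voom). The median log2 fold changes of the members were 0.31 for escalating against saline, 0.08 for nonescalating against saline and -0.09 for escalating against nonescalating. The medians over all genes were -0.02, -0.002 and -0.02. The first and second of these comparisons share the saline libraries. Leaving out 1 library gave medians of 0.001 (without escalating replicate 1) to 0.49 (without saline replicate 3) for escalating against saline, -0.004 (without nonescalating replicate 2) to 0.20 for nonescalating against saline, and -0.22 to 0.15 for escalating against nonescalating. None of the other lists of vesicle, peptide and activity-regulated genes had a called gene in these comparisons.

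**Figure D4:**
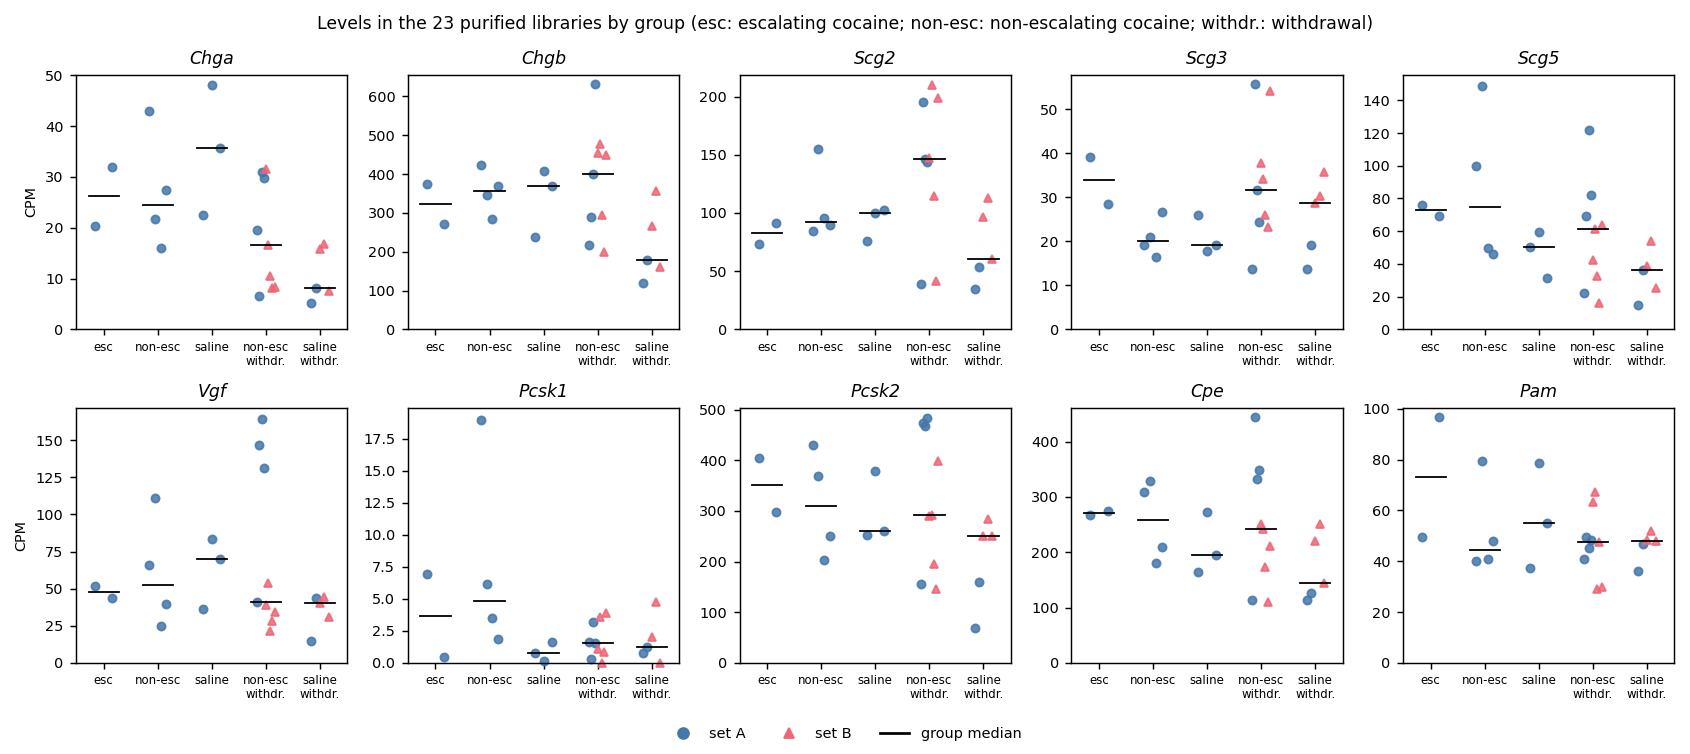
CPM of each gene in the 23 purified libraries by group (vertical axes linear, from 0), with escalating, nonescalating and saline libraries at the left and nonescalating withdrawal and saline withdrawal libraries at the right, shaped by library set, with lines at group medians. Chgb and Scg2 have withdrawal medians of 399 and 146 CPM after cocaine and 179 and 60.2 CPM after saline, with overlapping ranges.

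After withdrawal, nonescalating cocaine against saline asks what remains of a cocaine history. All 10 members had positive log2 fold changes, with a median of 0.66 beside 0.01 for all genes, but no gene was called (0 of 16908, 0%, by edgeR, 881 or 5.21% at an unadjusted p under 0.05, 1 by DESeq2 and 0 by limma voom). No member was without overlap between the groups, as 0.0414% of genes tested were. The 10 members vary together across libraries, so they are not 10 separate observations. The median differed between the sets: it was 1.48 with 10 of 10 positive in set A, which has 4 cocaine and 2 saline libraries, and 0.05 with 5 of 10 positive in set B, which has 5 and 3. One of the saline libraries of set A is the one placed by its number alone, and without it the median over both sets was 0.51.

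Chgb and Scg2 had the lowest p-values among the members. Chgb was at 218, 290.1, 399 and 631 CPM in nonescalating withdrawal libraries of set A, against 121 and 179 CPM in saline withdrawal libraries of set A. In set B it was at 455, 477, 295, 199 and 448 CPM after cocaine, against 266, 356 and 161 CPM after saline. Cocaine libraries thus lay above all saline libraries in set A and overlapped them in set B. The share of all genes that separate in this way within set A was not counted. With so few libraries in that set, no weight is put on the separation. The log2 fold change over both sets was 0.85 ± 0.29 (SE, unadjusted p = 0.00798, adjusted p = 0.749). It was 1.38 within set A (adjusted p = 0.135) and 0.50 within set B (adjusted p = 1), and 0.62 with the share of reads outside genes in the fit.

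Scg2 showed a like arrangement. It was at 39.3, 196, 146 and 144 CPM in nonescalating withdrawal libraries of set A, against 34.4 and 53.55 CPM in saline withdrawal libraries of that set, and at 148, 210.1, 114, 41.7 and 199 CPM after cocaine in set B, against 96.6, 112 and 60.2 CPM after saline. The lowest cocaine library of each set lay within or below the saline range of its set. The log2 fold change was 1.03 ± 0.37 (SE, unadjusted p = 0.0103, adjusted p = 0.749) over both sets, 1.60 within set A (adjusted p = 0.142), 0.64 within set B (adjusted p = 1) and 0.61 with the share of reads outside genes in the fit.

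That share differed between the groups in set A. Reads outside genes made up 60.7%, 30.4%, 28.7% and 30.9% of set A libraries after cocaine, against 70.7% and 52.7% after saline, and 43.1%, 29.8%, 52.2%, 58.4% and 32.3% of set B libraries after cocaine, against 36.0%, 31.9% and 46.4% after saline. With this share as a covariate the member median was 0.29, with 8 of 10 positive, and without the libraries above 50% it was 0.35, with 10 of 10 positive. Without the saline withdrawal library at 70.7% alone it was 0.32. Marker sums moved with the same groups: D2 neuron markers summed to 4250 to 17057 CPM after cocaine and 2225 to 7275 CPM after saline, and endothelial and mural markers to 102 to 6285 CPM after cocaine and 1408 to 10045 CPM after saline. In such bulk samples fewer cells of a type and less RNA per cell cannot be told apart.

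The remaining members were at overlapping levels in the withdrawal groups. Chga ran from 6.65 to 31.5 CPM (median 16.5) after cocaine, against 5.12 to 16.9 CPM (median 8.22) after saline. Scg3 ran from 13.8 to 55.8 CPM (median 31.7) and from 13.7 to 35.9 CPM (median 28.8), cocaine first, and Scg5 from 16.02 to 122 CPM (median 61.4) after cocaine, against 14.8 to 54.0 CPM (median 36.4) after saline. Vgf was at 41.1, 147, 164 and 131 CPM in set A after cocaine, while in set B it was at 21.3 to 53.7 CPM after cocaine, against 14.5 to 44.1 CPM in the saline libraries of both sets. The 3 withdrawal libraries above 100 CPM all belonged to set A. Pcsk2 ran from 145 to 483 CPM (median 293) after cocaine, against 69.5 to 284 CPM (median 249.6) after saline, and Cpe from 110.2 to 444 CPM (median 242) after cocaine, against 114 to 251 CPM (median 145) after saline. Pam had medians of 47.4 CPM after cocaine and 48.2 CPM after saline. Pcsk1 was at 0 to 3.91 CPM after cocaine and 0 to 4.77 CPM after saline. It had 0 counts in 1 library of each group, which allow up to 0.701 CPM in the cocaine library and 0.840 CPM in the saline library (3 counts each, counting error only).

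Of the 31 genes of vesicle biogenesis and release, 24 had positive log2 fold changes in this comparison (median 0.26) and 0 were called. Ptprn2, the vesicle membrane protein phogrin, had the lowest p among them, at 77.4 to 393 CPM after cocaine and 44.7 to 188 CPM after saline (0.94 ± 0.35, unadjusted p = 0.0149, adjusted p = 0.749 by edgeR), followed by Snap47 (0.74 ± 0.31). Penk was at 1784 to 6360 CPM after cocaine and 1017 to 3435 CPM after saline (0.91 ± 0.35, unadjusted p = 0.0164, adjusted p = 0.749). Of the 12 peptide-degrading enzymes, 6 were positive and 6 negative, and Lnpep, a membrane aminopeptidase, was at 41.2 to 94.0 CPM after cocaine and 77.7 to 123 CPM after saline (-0.55 ± 0.19, adjusted p = 0.749).

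Withdrawal against no withdrawal was compared within each drug history. For saline mice, 9 of 10 members had negative log2 fold changes (median -0.33, beside 0.08 for all genes), and no gene was called (0 of 16908, 0%, by edgeR, 884 or 5.23% at an unadjusted p under 0.05, 7 by DESeq2 and 0 by limma voom). Chga, the lowest in p among the members, was at 5.12 and 8.22 CPM in set A and 15.7, 16.9 and 7.56 CPM in set B after withdrawal, against 22.5, 48.0 and 35.7 CPM without withdrawal. No withdrawal library reached the lowest library without withdrawal, as for 4.03% of genes tested in that direction. The log2 fold change of Chga was -1.71 ± 0.63 (SE, unadjusted p = 0.0122, adjusted p = 0.782), -2.45 within set A (adjusted p = 0.300) and -1.42 with the share of reads outside genes as a covariate. The member median changed sign without the libraries above 50% of reads outside genes, to 0.42 with 6 of 10 positive, and without the saline withdrawal library at 70.7% alone, to 0.02, and was -1.02 within set A. Marker lists moved in the same comparison: log2 fold changes were negative for 7 of 7 D2 neuron markers (median -0.51) and 5 of 5 cholinergic markers (-1.20), and positive for 11 of 11 endothelial and mural markers (1.43) and 6 of 7 microglia markers (1.39), with 0 called. D2 neuron markers summed to 2225 to 7275 CPM after withdrawal and 8175 to 13014 CPM without. The part of these cell types in the members' values was not tested.

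For nonescalating cocaine mice, withdrawal against no withdrawal left the members divided, 5 positive and 5 negative, with a median of -0.02 (-0.19 to 0.12 without 1 library) beside 0.09 for all genes. No gene was called (0 of 16908, 0%, by edgeR, 763 or 4.51% at an unadjusted p under 0.05, 12 by DESeq2 and 0 by limma voom). Pcsk1 was at 0 to 3.91 CPM (median 1.55) after withdrawal, against 1.87 to 19.0 CPM without, a log2 fold change of -2.37 ± 1.07 (SE, unadjusted p = 0.0375, adjusted p = 0.926). It was -1.39 without nonescalating replicate 1, -1.52 with the share of reads outside genes as a covariate and -1.24 by limma voom. This comparison and nonescalating against saline share the same 4 nonescalating libraries. Pcsk1 was at 19.0, 6.14, 3.48 and 1.87 CPM in them, and the values of 3.48 and 1.87 lay within the range after withdrawal. Among other processing enzymes the convertase Furin had the lowest p (4.60 to 50.9 CPM after withdrawal and 6.65 to 42.6 CPM without, 1.13 ± 0.47, adjusted p = 0.926). The interaction of cocaine with withdrawal was positive for 8 of 10 members (median 0.53, beside 0.07 for all genes, and 0.28 without saline withdrawal replicate 1 of set A), and 0 genes were called (344 or 2.03% at an unadjusted p under 0.05, 2 by DESeq2 and 0 by limma voom), so no difference between the drug effects with and without withdrawal was established for any member. D2 neuron markers were positive in the interaction for 7 of 7 (median 0.61) and endothelial and mural markers for 0 of 11 (median -0.89).

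Across purified libraries, the members' levels moved with the share of reads outside genes. In a fit with group, library set and this share, 8 of the 10 members were called lower as the share grew, where 47.8% of all genes tested were called, 22.8% of all genes lower and 25.1% higher. All 10 slopes were negative, with a median of -0.43 in log2 units per 10 percentage points, beside 0.02 for all genes.

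Vgf had a slope of -0.61 ± 0.07 (SE, adjusted p = 3.16e-07) and Scg5 one of -0.59 ± 0.07 (adjusted p = 4.35e-07), both per 10 points. Scg5 was at 14.8 to 36.4 CPM (median 22.1) in the 5 purified libraries with shares of 52.2% to 70.7%, against 25.5 to 149 CPM (median 60.5) in the other 18, whose shares were 21.2% to 47.4%. Pcsk2 (slope -0.50 ± 0.05, adjusted p = 1.10e-07) was at 69.5 to 195 CPM in those 5 libraries and at 204 to 483 CPM in the other 18, with no overlap, as for 1.48% of genes tested in that direction. Cpe (-0.42 ± 0.05, adjusted p = 4.65e-07) was at 110.2 to 173 CPM in the 5 and 145 to 444 CPM in the other 18. Scg2 (-0.45 ± 0.08, adjusted p = 3.72e-05) and Chgb (-0.33 ± 0.06, adjusted p = 9.27e-05) had medians of 41.7 and 199 CPM in the 5 libraries, against 101.04 and 369 CPM in the other 18.

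Chga (-0.32 ± 0.13, adjusted p = 0.0397) and Scg3 (-0.25 ± 0.09, adjusted p = 0.0242) lay closer to the threshold, and their calls were lost within either set, with RLE factors and with DESeq2. They were also lost without any of 11 libraries for Chga and any of 4 libraries for Scg3. In set B alone the calls of Vgf, Pcsk2 and Cpe were lost as well, with slopes of -0.29, -0.34 and -0.32. Pcsk1 (-0.52 ± 0.30, adjusted p = 0.163) and Pam (-0.16 ± 0.07, adjusted p = 0.0859) were not called by edgeR. limma voom called both (Pcsk1 -0.78, adjusted p = 0.0245, and Pam -0.19, adjusted p = 0.0330), and edgeR called Pam without replicate 5 of the nonescalating withdrawal libraries of set B (adjusted p = 0.0495). Pam was at 29.2 to 47.4 CPM in the 5 libraries above 50% and 29.9 to 97.0 CPM in the other 18.

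Markers of cell types moved with the same share. All 7 D2 neuron markers were called lower (median slope -0.53 per 10 points), and all 11 endothelial and mural markers were called higher (median 0.97). Of 31 vesicle biogenesis and release genes, 20 were called lower and 3 higher, among them Ptprn2 (-0.47 ± 0.06), while of 11 other processing genes 2 were called lower, Pcsk1n (-0.59 ± 0.11) and Qpct (-0.69 ± 0.23), and 4 higher, including the carboxypeptidases Cpd (0.35 ± 0.06) and Cpm (0.59 ± 0.17). Penk fell with the share (-0.45 ± 0.05). The part of cell composition in the members' slopes was not tested.

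**Figure D5:**
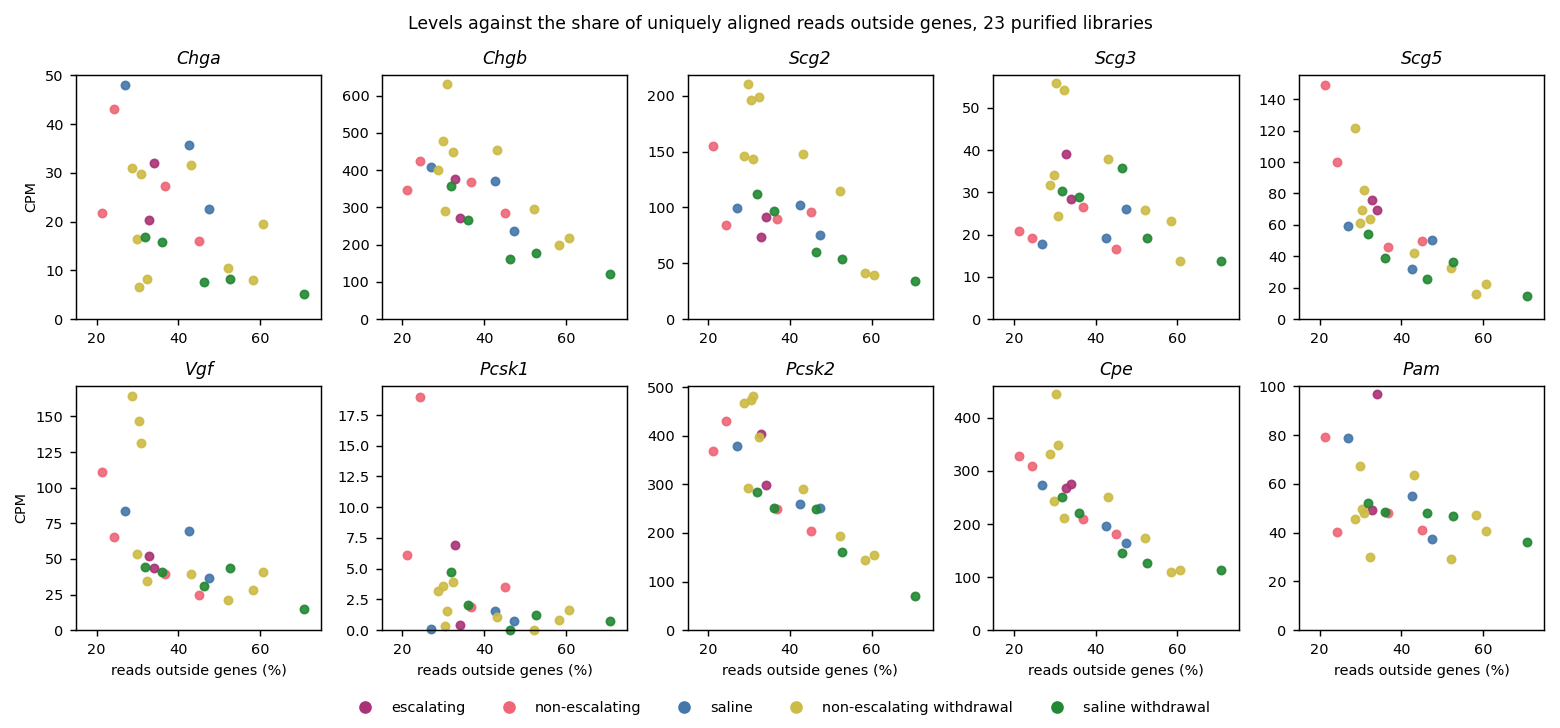
CPM of each gene (vertical axes linear, from 0) against the percentage of uniquely aligned reads outside genes in the 23 purified libraries, coloured by group. Pcsk2 lies at 69.5 to 195 CPM in the 5 libraries above 50% and at 204 to 483 CPM in the other 18.

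The members also rose and fell with one another across the 23 purified libraries, which differ in depth and in that share. Spearman correlations of log2 CPM are given as a description. Pcsk2 and Cpe had the highest value among the 45 pairs (0.93), followed by Scg5, the PC2 chaperone, with Pcsk2 (0.89) and Scg5 with Cpe (0.89). The lowest value was that between Chga and Scg3 (-0.13). With Pcsk2, the PC2 gene, Chga had 0.48, Scg3 0.49, Pam 0.37 and Pcsk1 0.31. Among 10365 other genes that averaged 5 CPM or more, the nearest to Cpe were Phactr1 (0.96), Mmp17 (0.94) and Atp6ap1 (0.94), an accessory subunit of the vesicular proton pump. The nearest to Pcsk2 were Rtn1 (0.96), Adamts3 (0.95) and Rasgrf1 (0.95), to Scg5 Plppr1 (0.95) and Eif5a (0.93), and to Vgf Pfn1 (0.92), Shc3 (0.89) and Clstn3 (0.88). Chgb was nearest to Atp1b1 (0.91), Tpm1 (0.90) and Tro (0.90), and Scg2 to Atp6v1a, a catalytic subunit of the same pump (0.90), Qpct, a glutaminyl cyclase (0.87), and Dcun1d4 (0.86). For Scg3 the nearest were Zfp612, Gsk3b and Gbas (0.83 to 0.85), for Chga Gtf2f1, Rpl7a and Ccdc124 (0.84 to 0.85), and for Pam Rnf6, Ncoa7 and Kctd16 (0.74 to 0.81). For Pcsk1, whose counts are sparse, they were Thoc3, Golga3 and Rbbp4 (0.71 to 0.77).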

How the data were processed

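Ribosome-bound and input RNA of 26 libraries was sequenced. Each deposited table gives raw read counts by gene symbol for a library, not normalized by the authors. The submitters' processing notes name STAR 2.0.0e, HTSeq and mm10. No source used here names the annotation release or strand setting. Entries naming no gene served only for shares of reads. The tables list 32532 (10 tables) or 32658 genes, of which 31978 were joined by symbol, holding 99.5% to 99.9% of gene counts. After filterByExpr, edgeR 4.0.16 under R 4.3.3 tested 16908 genes over 23 purified libraries (terms for group and library set) and 16422 genes over 12 purified and 3 input libraries (terms for kind, condition and set), scaled by TMM. Alternatives used DESeq2 1.42.0 and limma 3.58.1. In simulated data, changes were planted only in genes averaging 5 CPM or more, and counts varied independently between libraries. Pcsk1, at a mean of 2.83 CPM over purified libraries, lies below that level, so the rates do not cover it. The fits recovered 1% of 2-fold and 32% of 4-fold changes for nonescalating against saline, and 1% and 19% for escalating against saline. They recovered 9% and 68% for nonescalating withdrawal against saline withdrawal, and 4% and 47% for purified against input RNA. A comparison without calls therefore does not show that levels were unchanged. Among 56 pairs of libraries within a group, 0 were identical. Residuals gave no sign that replicate numbers pair libraries. They correlated at a median of -0.19 (-0.54 to 0.57) over 25 same-number pairs and -0.07 (-0.60 to 0.61) over 78 others. With ranges this wide, and no term for reads outside genes in that fit, the check cannot exclude pairing. The text names all members, up to 4 called genes a list (otherwise up to 2, by p) and the 3 most similar genes a member, except 1 that is not reported here. The members and lists were chosen with earlier results of these data known.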

Additional observations from a re-analysis of the deposited data

Results flagged for a closer look

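Scg2 in nonescalating replicate 2 stood apart from its group. It was at 155 CPM (154.65) there, against 84.6, 95.7 and 89.6 CPM in the other 3 nonescalating libraries, a gap that passes Dixon's criterion for 4 values. That library had the lowest share of reads outside genes of all purified libraries, 21.2%, and also the highest Scg5 level, 149 CPM. It was 1 flag among 30 combinations of member and group, and chance flags about 1 in 20. Scg2 in purified against input libraries stayed lower and called without it.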

How the results depend on the processing

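The falls of Scg2 and Scg3 in purified against input RNA kept their direction and call under each setting with more than 1 input (set B has 1, so its p-values are set aside). The number of genes called in that comparison moved from 1124 to 2901 with DESeq2, 1788 with reads outside genes as a covariate, 242 in set A alone, 2659 in set B alone and 241 to 1529 without 1 library, lowest without the nonescalating input. With the replicate block it was 181, and the block changed no member's call there and added none between conditions. Uncalled members changed sign there: Chga with RLE factors (-0.012), DESeq2 (-0.0042) and in set B (-0.91), Vgf (0.13) and Pcsk2 (0.077) with the covariate, Scg5 (0.010) and Pcsk2 (0.089) in set A, and Pam in set B (0.52). Without 1 library Chga ran from -0.25 to 0.53, Pam from -0.43 to 0.12, Pcsk1 from -1.91 to 0.21 and Pcsk2 from -0.25 to 0.068. For conditions, DESeq2 called 3 genes for nonescalating against saline, 6 for escalating against saline, 11 for escalating against nonescalating, 1 for the withdrawal drug comparison, 7 and 12 for withdrawal against none in saline and nonescalating mice, and 2 for the interaction. Without a filter escalating against saline had 2 calls and against nonescalating 1, with the covariate 2 and 4, and without 1 library 0 to 2 and 0 to 6. Genes called on the share of reads outside genes numbered 8087, against 5239 in set A and 1315 in set B. Per kb of the longest transcript Pcsk2 was at 62.2 and Pam at 12.5 CPM per kb. limma voom called Pcsk1 (-0.78) and Pam (-0.19) on that share. The cause of these changes was not tested. With 2 to 9 libraries a group, low counts limit Pcsk1 most.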
